A study of Homo sapiens with 10 samples.

Results

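A set of 434 H3K27ac peaks was lower after 2 h and 4 h of degrader treatment than in cells given DMSO, the vehicle, and stood higher again at 24 h. These peaks were selected on their measured levels. A peak was a member when each of the 4 libraries from 2 h and 4 h (the early libraries) lay below each of the 4 libraries from DMSO and 24 h (the outer libraries). Levels were CPM, the read count of a peak scaled by the library's total count in peaks, and the mean over all 8 libraries had to be at least 10 CPM. Of the 42067 peaks in the table, 26191 reached that mean, and the 434 members were 1.66% of them. The mirror rule, with each early library above each outer one, held for 666 peaks, or 2.54%. Since the order of the libraries chose the members, that order is a description here and not a finding. Peaks with no change can also meet either rule through the spread between libraries, and how many do so was not estimated.

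Rh30, an established line from a human alveolar rhabdomyosarcoma, was used throughout, and in every group, controls included, the cells carried PAX3-FOXO1 joined to FKBP. The 4 groups were DMSO, and 500 nM dTAG47 for 2 h, 4 h and 24 h, each with 2 chromatin immunoprecipitation libraries made with an anti-H3K27ac antibody. For DMSO no time is labelled, and the labels do not say whether the line is 1 clone or whether the 2 libraries of a group came from separate cultures. Hours in culture and hours of treatment therefore cannot be told apart, and the spread between libraries may be technical. The labels name no batch, so a difference in handling shared by the 2 h and 4 h libraries cannot be told apart from the early time points.

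PAX3-FOXO1 is the product of a chromosomal translocation and the driver of this tumour type. It joins the DNA-binding part of the muscle and neural-crest regulator PAX3 to the activating part of FOXO1, and it binds and maintains enhancers in the tumour cells. FKBP serves as a degron: dTAG47 bridges it to a ubiquitin ligase, and the fusion is then destroyed by the proteasome. H3K27ac, acetylation of lysine 27 on histone H3, marks active promoters and enhancers. The p300 and CBP enzymes deposit it and histone deacetylases remove it, so the mark can fall and return within hours.

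The libraries held between 3540104 and 5001652 counts in peaks, and a member had a median of 102 counts per library (range 40.6 to 1307 over the members). The counts of the 2 libraries of a group differed by slightly more than counting noise, with a chi-square per degree of freedom from 1.06 to 1.21. The table gives positions on hg19 and no gene names, and no hg19 annotation was used here, so peaks are named by position and their genes, promoter or enhancer class, and the cell line's marker genes were not analysed. All members are 400 bases wide between the printed start and end.

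The drop in the members was shallow. The mean early level was 84.5% of the mean outer level in the median member, and it ranged from 57.9% to 96.6%. On the log2 scale the median early minus outer difference was -0.24, against 0.01 over all 26191 peaks. The difference exceeded 0.25 log2 units in 205 members and 0.5 in 36. Median levels over the members were 28.7 and 28.6 CPM in the DMSO libraries A and B and 22.5 and 22.7 CPM in the 2 h libraries. They were 23.3 and 22.4 CPM in the 4 h libraries and 27.6 and 27.7 CPM in the 24 h libraries. The gap between the groups was narrower still. The lowest outer library was 1.03 times the highest early library in the median member, at least 1.1 times in 57 members and at least 1.2 times in 10. For comparison, the higher of the 2 DMSO libraries was 1.06 times the lower in the median member, and the higher of the 2 libraries at 4 h was 1.08 times the lower. The rule chose members on these same libraries, so their differences within a group may be understated. Over all 26191 peaks the median ratios were larger, at 1.104 for DMSO and 1.101 for 4 h. The median gap of the members was therefore smaller than the median difference between the 2 libraries of 1 group, whether taken in the members or over all peaks. These are unlike measures. The gap compares the extremes of 4 and 4 libraries and narrows as libraries spread, while the ratio within a group widens.

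**Figure D1:**
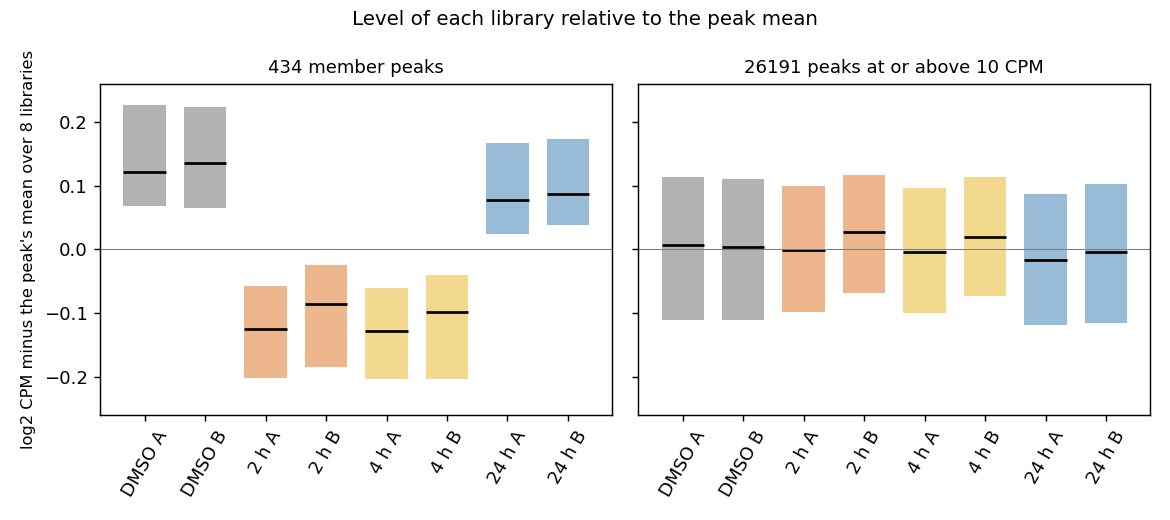
Each bar spans the quartiles, and each black line marks the median, of log2 CPM minus the peak's own mean over 8 libraries, for 434 members (left) and 26191 peaks at or above 10 CPM (right), with 1 bar per library. Member medians lie between -0.13 and -0.08 in the early libraries and between 0.08 and 0.14 in the outer ones, as the rule requires, while medians over all peaks lie between -0.02 and 0.03.

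The peak with the widest gap was chr5:131654140-131654540. It stood at 12.4 CPM in both DMSO libraries, 8.02 and 9.06 CPM at 2 h, 6.87 and 8.90 CPM at 4 h, and 13.2 and 12.1 CPM at 24 h. Its lowest outer library was 1.34 times its highest early library, and its 24 h level was back at the DMSO level (24 h against DMSO log2 change 0.01, SE 0.21). This peak is also weak, with 25 to 66 counts per library. Next was chr5:14456141-14456541, at 18.6 and 19.2 CPM in DMSO, 10.5 and 10.1 CPM at 2 h, 10.99 and 8.41 CPM at 4 h, and 16.6 and 14.6 CPM at 24 h. It had the largest drop of the set, to 57.9% of the outer level (early minus outer log2 difference -0.76, SE 0.15), and both 24 h libraries were below both DMSO libraries. Another peak of the same chromosome, chr5:73259227-73259627, stood at 16.9 and 14.7 CPM in DMSO, 10.2 and 7.17 CPM at 2 h, 10.2 and 11.1 CPM at 4 h, and 14.8 and 14.4 CPM at 24 h.

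A pair of neighbouring members on chromosome 20 ranked next. The stronger one, chr20:47117498-47117898, held 169 to 366 counts per library and is the best measured of the peaks with a wide gap. It stood at 72.3 and 73.0 CPM in DMSO, 46.7 and 54.8 CPM at 2 h, 50.8 and 47.2 CPM at 4 h, and 73.2 and 69.6 CPM at 24 h. Its early level was 69.3% of its outer level (log2 difference -0.53, SE 0.07), and the DMSO and 24 h libraries overlapped. The weaker one, chr20:47118619-47119019, whose centre lies 1.12 kb away, stood at 17.5 and 18.0 CPM in DMSO, 13.3 and 12.4 CPM at 2 h, 9.06 and 12.4 CPM at 4 h, and 17.2 and 18.3 CPM at 24 h. DNA fragments may reach across such neighbouring windows, so the pair may not be separate measurements.

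The other peaks among the 8 widest gaps were on chromosomes 4, 2 and 3. The peak chr4:7511937-7512337 stood at 25.1 and 27.4 CPM in DMSO, 17.7 and 19.8 CPM at 2 h, 17.3 and 17.1 CPM at 4 h, and 29.8 and 28.1 CPM at 24 h. Both of its 24 h libraries were above both DMSO libraries, but the 24 h against DMSO change was not called (log2 change 0.12, SE 0.14, edgeR adjusted p = 0.691). The peak chr2:29699352-29699752 stood at 11.9 and 11.8 CPM in DMSO, 8.85 and 9.06 CPM at 2 h, 9.34 and 9.40 CPM at 4 h, and 14.6 and 14.2 CPM at 24 h. The peak chr3:174047438-174047838 stood at 15.3 and 16.9 CPM in DMSO, 8.85 CPM in both 2 h libraries, 11.5 and 12.1 CPM at 4 h, and 16.0 and 15.6 CPM at 24 h. In this last peak both 4 h libraries were above both 2 h libraries, but the difference was not called (4 h against 2 h log2 change 0.41, SE 0.23, edgeR adjusted p = 0.759).

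**Figure D2:**
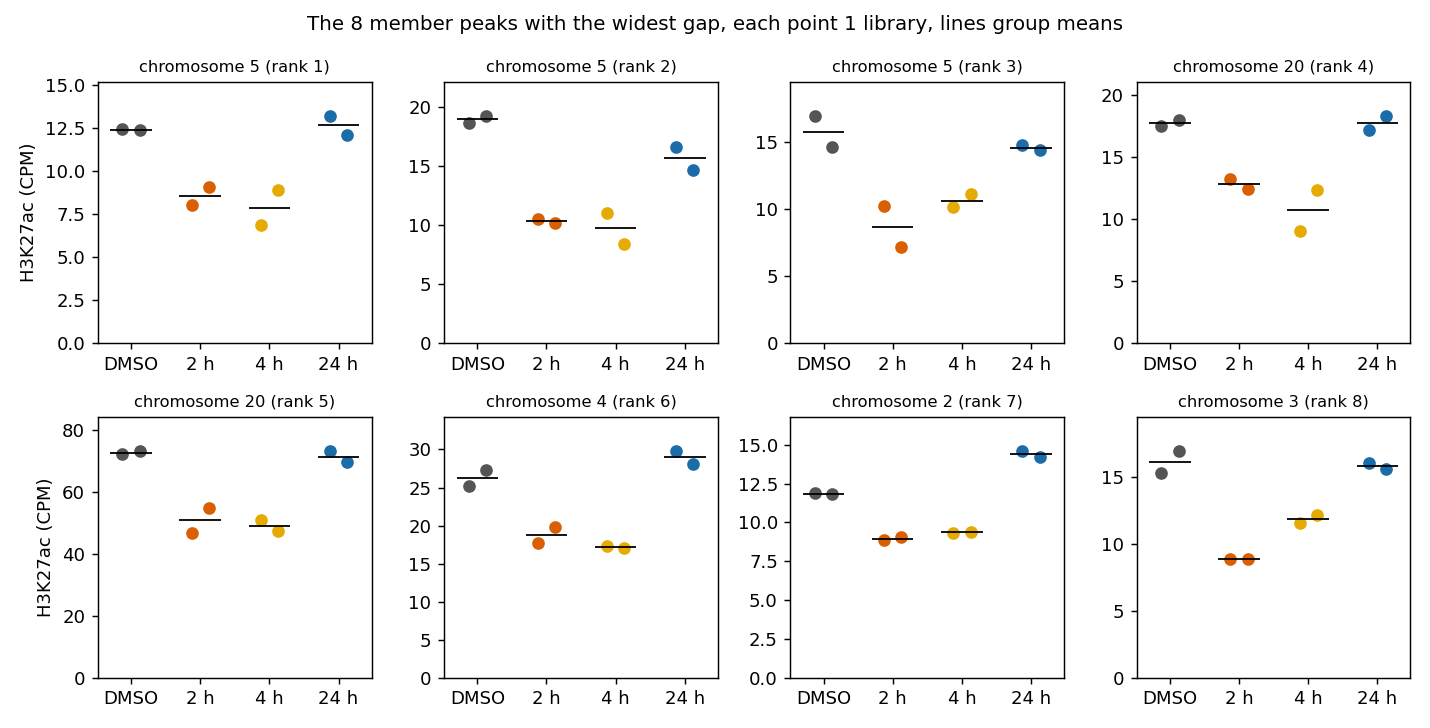
H3K27ac in CPM (vertical axis, starting at 0) in DMSO and after 2 h, 4 h and 24 h of dTAG47 for the 8 members with the highest ratio of lowest outer to highest early library, in that order. Points are single libraries and lines are group means; at the strongest of the 8, on chromosome 20, the early libraries lie between 46.7 and 54.8 CPM and the outer ones between 69.6 and 73.2 CPM.

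The 5 strongest members had early levels between 87.8% and 96.1% of the outer level. The peak chr20:60718466-60718866, with the highest mean, stood at 334 and 340.1 CPM in DMSO, 319 and 314 CPM at 2 h, 316 and 308 CPM at 4 h, and 326 and 319 CPM at 24 h. Its early level was 95.4% of its outer level, and its highest early and lowest outer libraries were nearly equal. The peak chr21:16436965-16437365 stood at 241 and 234 CPM in DMSO, 188 and 227 CPM at 2 h, 216 and 221 CPM at 4 h, and 247 and 230.2 CPM at 24 h, and its low mean at 2 h rested on library A. The peak chr12:57665988-57666388 stood at 215 and 246 CPM in DMSO, 199 and 191 CPM at 2 h, 198 and 199 CPM at 4 h, and 210.1 and 225 CPM at 24 h. In chr20:48729331-48729731 and chr17:17140392-17140792 the early level was 96.1% and 96.0% of the outer one.

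At the edge of the rule the values on either side could not be told apart. The members with the narrowest gap were chr13:93879927-93880327, with 54.4 CPM in its highest early and lowest outer library, and chr17:16118509-16118909, with 143.5 CPM in each. Just outside were chr6:99968798-99969198, with 31.6 CPM in each, and chr21:28942209-28942609, with 28.8 CPM in each. The members with the lowest mean level, chr17:55184144-55184544 and chr5:14449214-14449614, had a mean over 8 libraries of 10.02 and 10.04 CPM. The ordered peaks just under the minimum, chr22:27054507-27054907 and chr1:169455324-169455724, had 9.99 and 9.98 CPM.

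How far the transient pattern recurs in libraries that did not choose the peaks was measured by using 1 library per group for the choice and the other for the measurement. With the A libraries, 3800 of the 26191 peaks had both early libraries below both outer ones. In the B libraries 769 of these, or 20.2%, had the same order, against 13.6% of all 26191 peaks. The median early minus outer difference of the 3800 peaks was -0.19 log2 units in the A libraries and -0.01 in the B libraries, where that of all peaks was 0.03. With the B libraries, 3560 peaks were chosen. The peaks ordered in both the A and the B libraries are then the same 769, which are 21.6% of the 3560, so this share is no second measurement of the recurrence (14.5% of all peaks had the order in the A libraries). The median of the 3560 went from -0.19 in the B libraries to -0.04 in the A libraries, where that of all peaks was 0.003. In the other libraries, 52.7% of the peaks chosen with A and 60.4% of those chosen with B had a negative difference, against 43.0% and 49.3% of all peaks. The letters A and B are not tied to the labels' replicate numbers, so this pairing of libraries is arbitrary, and other pairings were not tried. With this pairing the order in B was more frequent in the peaks chosen with A than over all peaks. All peaks include those that differ between DMSO and 24 h, in which this order can be less likely in A and in B alike. The larger share therefore does not by itself show a transient pattern. Most of the size of the difference in the choosing libraries did not recur. The same measurement could not be made for the 434 members, because all 8 libraries chose them.

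**Figure D3:**
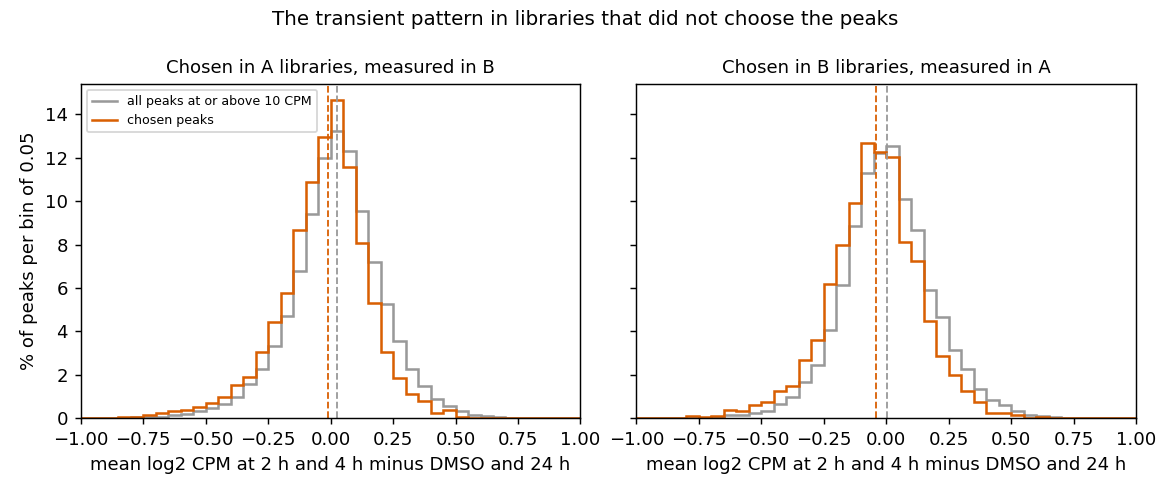
Distribution of the early minus outer difference in log2 CPM (horizontal axis) as the percentage of peaks in each bin (vertical axis), for peaks chosen in the A libraries and measured in B (left) and the reverse (right); orange is the chosen peaks, grey all 26191 peaks, and dashed lines are medians. The chosen peaks are shifted to the left of all peaks only slightly, with medians of -0.01 against 0.03 and -0.04 against 0.003.

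The rule sets no order between DMSO and 24 h, so the comparison of these groups asks whether members differed from DMSO at 24 h. At 24 h, 10 members were lower and 2 were higher than in DMSO (edgeR quasi-likelihood test over 41791 peaks, Benjamini-Hochberg adjusted p under 0.05). These are 2.30% and 0.461% of the members, beside 5.66% lower and 3.71% higher among the 26191 peaks. Since both groups had to lie above the early libraries, a member could not be far lower at 24 h than in DMSO unless it was lower still at 2 h and 4 h, so the rule itself bounds these shares. The median 24 h against DMSO log2 change was -0.05 over the members and -0.02 over all 26191 peaks. The 24 h and DMSO libraries overlapped in 264 members. Both DMSO libraries were above both 24 h libraries in 110 members, or 25.3%, beside 24.2% of all peaks. Both 24 h libraries were above both DMSO libraries in 60 members, or 13.8%, beside 25.8% of all peaks. The DESeq2 Wald test called 0 members in either direction, beside 314 lower and 83 higher among the 26191 peaks. At an unadjusted p under 0.05 edgeR had 22 lower and 3 higher members (5.07% and 0.691%, beside 12.7% and 9.27% of all 26191 peaks).

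The member with the largest loss at 24 h was chr11:61263948-61264348, at 34.7 and 34.97 CPM in DMSO, 16.6 and 19.0 CPM at 2 h, 18.4 and 17.8 CPM at 4 h, and 20.2 and 23.1 CPM at 24 h. Both of its 24 h libraries lay above its early libraries, as the rule required, so no return is read from that order. This peak stood 0.71 log2 units below DMSO at 24 h (log2 change -0.71, SE 0.14, edgeR adjusted p = 9.78e-05, DESeq2 adjusted p = 0.0819). It was the only one of the 12 called members that stayed called in edgeR whichever 1 of the 8 libraries was left out (log2 change from -0.81 to -0.61). The peaks chr8:37639976-37640376, chr2:102096275-102096675, chr10:134555705-134556105 and chr12:3339737-3340137 had 24 h against DMSO log2 changes of -0.65, -0.63, -0.60 and -0.58 (edgeR adjusted p = 0.033, 0.0294, 0.00806 and 0.00444). Without DMSO library A, at 18.4 CPM against 13.0 CPM in B, the change of chr8:37639976-37640376 was -0.38 (edgeR adjusted p = 0.534). The other members called lower were chr7:2535077-2535477 (log2 change -0.31) and 4 peaks named after their values were seen: chr17:73055667-73056067 (-0.51), chr7:92157408-92157808 (-0.35), chr9:132881057-132881457 (-0.29) and chr20:7999996-8000396 (-0.28).

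A pair of members was called above the DMSO level at 24 h by edgeR. The DESeq2 Wald test called neither (adjusted p = 0.520 for the peak on chromosome 9 and 0.431 for that on chromosome 4). The peak chr9:139719180-139719580 stood at 15.3 and 14.9 CPM in DMSO, 14.1 and 11.6 CPM at 2 h, 12.6 and 13.8 CPM at 4 h, and 21.2 and 24.3 CPM at 24 h (24 h against DMSO log2 change 0.56, SE 0.18, edgeR adjusted p = 0.026). The peak chr4:7521401-7521801 stood at 22.6 and 23.7 CPM in DMSO, 21.6 and 22.6 CPM at 2 h, 22.5 and 19.5 CPM at 4 h, and 33.2 and 33.0 CPM at 24 h (log2 change 0.49, SE 0.14, edgeR adjusted p = 0.014). In both, the step from DMSO down to the early levels was smaller than the step from there up to 24 h. The next 3 by size, chr4:7511189-7511589, chr1:230471600-230472000 and chr19:4977689-4978089, had changes of 0.46, 0.34 and 0.30 and were not called (edgeR adjusted p = 0.0895, 0.363 and 0.386). The calls of both gains were lost without DMSO library A (edgeR adjusted p = 0.14 and 0.141) and without 24 h library B (0.226 and 0.0656), as well as without DMSO library B (0.168 and 0.0814), and that on chromosome 4 also without 24 h library A (0.0878).

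Between 2 h and 4 h no difference was called. Of the 434 members, 0 were lower and 0 were higher at 4 h in edgeR, and 0 in DESeq2, beside 0% of all 26191 peaks in either direction. At an unadjusted p under 0.05 edgeR had 2 lower and 1 higher member (0.461% and 0.230%), beside 1020 and 764 of all 26191 peaks (3.89% and 2.92%). Each 2 h and 4 h library of a member had to lie below every outer library, so the rule itself bounds these shares. The median 4 h against 2 h log2 change of the members was -0.01, and 218 members had the lower mean at 2 h. Both 2 h libraries were above both 4 h libraries in 70 members (16.1%, beside 17.5% of all peaks), and the reverse held in 54 (12.4%, beside 18.1%). The lowest change was in chr17:55622649-55623049 (log2 change -0.65, SE 0.27, edgeR adjusted p = 0.644), which stood at 12.1 and 14.7 CPM in DMSO, 10.5 and 8.85 CPM at 2 h, 9.06 and 3.46 CPM at 4 h, and 11.6 and 12.8 CPM at 24 h, so that its low 4 h mean rested on library B. The peaks chr3:194967040-194967440 and chr2:1597545-1597945 had changes of -0.40 and -0.34. The highest changes were in chr10:79190630-79191030 (0.42), chr3:174047438-174047838 (0.41) and chr2:111596117-111596517 (0.38), none of them called (edgeR adjusted p from 0.709 to 0.775).

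**Figure D4:**
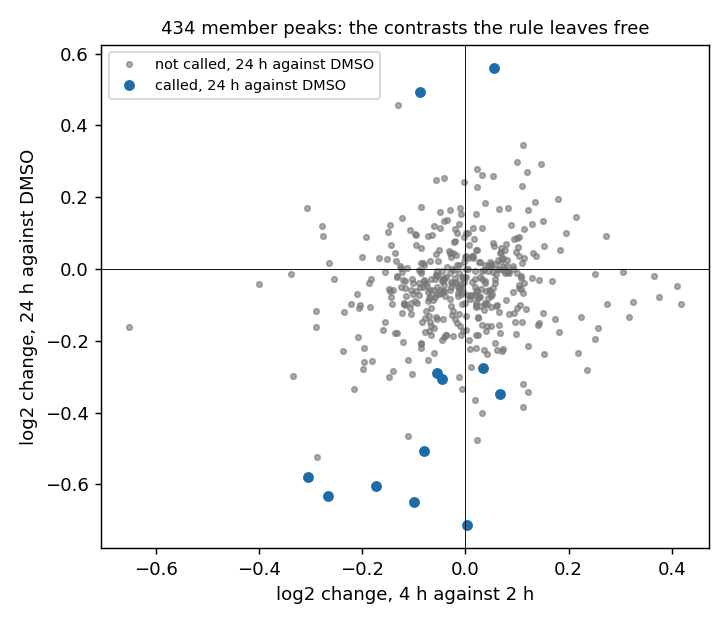
Log2 change of 4 h against 2 h (horizontal axis) and of 24 h against DMSO (vertical axis) for each of the 434 members; blue points are the 12 members called for 24 h against DMSO. Most members lie near 0 on both axes, with medians of -0.01 and -0.05, and the called members lie at or below -0.28 or at or above 0.49 on the vertical axis.

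The whole-table test was also made for the contrasts that the rule used. The rule chose members on these contrasts, so nothing is read from the counts. Lower than DMSO were 37 members at 2 h and 39 at 4 h (8.53% and 8.99%), beside 1.12% and 1.78% of the 26191 peaks. Higher at 24 h were 32 members against 2 h and 15 against 4 h (7.37% and 3.46%), beside 1.54% and 0.412%.

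Position was not used by the rule. Members lay on all 24 chromosomes of the table. Chromosome 2 had 48, or 2.40% of its peaks at or above 10 CPM, and chromosome 1 had 31, or 1.06%. As a share of the peaks at or above 10 CPM, members ranged from 0.872% on chromosome 15 to 3.15% on chromosome 18 among the chromosomes with at least 286 such peaks. By strength, members were most frequent at both ends: when the peaks were cut into 10 equal bins by mean CPM, they were 2.21% of the weakest bin, 1.11% of bin 6 and 2.10% of the strongest bin. The mirror set was rarest in the strongest bin, at 1.22%, and reached 3.47% in bin 6. The median early minus outer difference of all peaks also varied with strength, from 0.03 in bin 5 to -0.01 in bin 10; its part in these shares was not tested.

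Most members had no other member nearby. Within 12500 bases, centre to centre, 209 members (48.2%) had no other peak at or above 10 CPM, beside 44.6% of all such peaks. Another member lay within 12500 bases of 25 members, which formed 10 groups: 6 of 2 peaks, 3 of 3 and 1 of 4. These 25 are 5.76% of the members, while 1.48% of the non-members at or above 10 CPM had a member within that distance. In the mirror set 7.66% had another peak of that set within the same distance.

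The group of 4 lay on chromosome 7 from 2526998 to 2538346. The peak chr7:2535077-2535477 stood at 72.9 and 66.8 CPM in DMSO, 52.0 and 49.95 CPM at 2 h, 48.1 and 50.9 CPM at 4 h, and 57.4 and 57.2 CPM at 24 h. Its 24 h libraries lay above its early ones, as the rule required. It was called below DMSO at 24 h by edgeR (log2 change -0.31, SE 0.10, edgeR adjusted p = 0.0288) but not by DESeq2 (DESeq2 adjusted p = 0.501). Without 1 of the DMSO or 24 h libraries the log2 change was from -0.37 to -0.24, and the edgeR call was lost. The peak chr7:2537080-2537480 stood at 92.4 and 86.0 CPM in DMSO, 73.3 and 70.2 CPM at 2 h, 67.3 and 70.7 CPM at 4 h, and 85.4 and 75.8 CPM at 24 h. Its neighbours chr7:2537946-2538346 and chr7:2526998-2527398 had early levels at 86.7% and 83.2% of the outer level. Of the 6 non-members within 12500 bases of these members, 3 had a negative early minus outer difference. Between the members chr7:2535929-2536329 had a difference of -0.38 with a 24 h against DMSO change of -0.73, so it stayed low and was not a member.

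Groups of 3 members lay on chromosomes 20, 4 and 2. On chromosome 20, between 48600478 and 48604758, the early minus outer differences were -0.28, -0.13 and -0.25, and the 24 h against DMSO changes were 0.10, -0.05 and -0.03. On chromosome 4, between 7511189 and 7521801, the differences were -0.55, -0.60 and -0.35, and these 3 peaks include the gain at 24 h at chr4:7521401-7521801. On chromosome 2 the 3 members lay in a run of 13 tested peaks between 133015068 and 133036230, with early minus outer differences from -0.18 to -0.47. All 9 non-members of the run at or above 10 CPM had a negative difference. In this run the 2 libraries of each early group went apart. At 2 h library B was below library A in 13 of 13 peaks, and at 4 h in 13 of 13. Both early B libraries were below every outer library in 13 of 13 peaks, but both early A libraries were so in 4. Relative to each peak's mean over 8 libraries, the median of the run was -0.33 and -0.38 log2 units in the 2 h and 4 h B libraries and -0.001 and 0.07 in the A libraries. The low early level of this run therefore rests on the B libraries; the cause was not tested.

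Peaks next to a member tended to share its direction without meeting the rule. Within 2 kb of a member lay 130 non-member peaks at or above 10 CPM, and 89 of them (68.5%) had a negative early minus outer difference, beside 44.8% of all non-members. Their median difference was -0.09 log2 units. By distance, the median was -0.09 up to 1 kb, -0.10 from 1 to 2 kb, -0.01 from 2 to 5 kb and 0.005 from 5 kb to 12500 bases, where 48.9% of 188 peaks were negative. Beyond 1000 kb it was 0.02. These peaks come from the same libraries as the members and were not chosen for low early levels, but fragments can span neighbouring windows. Among the 87 of them whose window lay at least 500 bases from the member's window, 60 (69.0%) were negative. Without the chromosome 2 run, 84 of 125 were negative. With the members kept as chosen from all 8 libraries, between 86 and 92 of 130 were negative without any 1 library. These further counts, and the distance of 2 kb, were chosen after the distances had been seen, and no test was made.

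**Figure D5:**
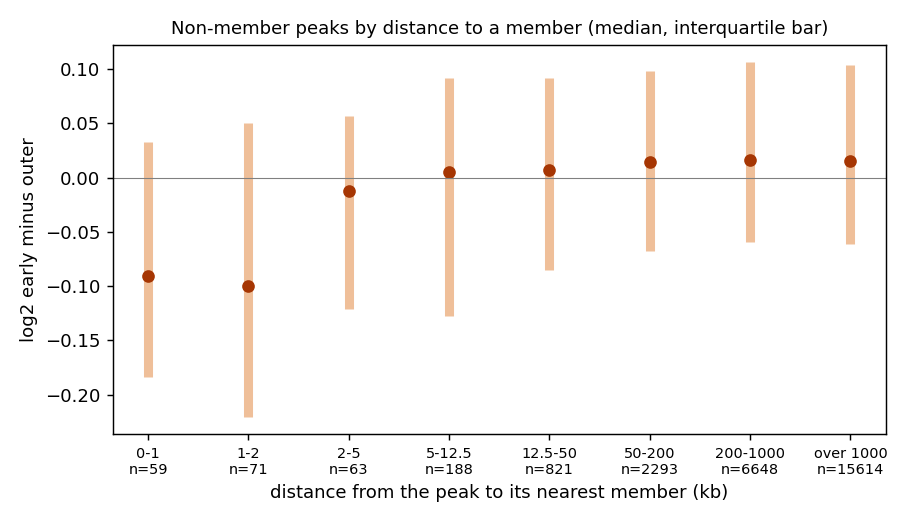
Early minus outer difference in log2 CPM (vertical axis) of non-member peaks at or above 10 CPM, grouped by distance to the nearest member in kb (horizontal axis); points are medians, bars the quartiles, and n the number of peaks. Medians are -0.09 and -0.10 up to 2 kb and lie between -0.01 and 0.02 farther away.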

How the data were processed

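H3K27ac ChIP-seq of 8 libraries was analysed from the authors' deposited table of raw read counts in 42067 peak windows, on hg19 per the submitters' processing notes. As tools they list DESeq2, DiffBind, MACS2, Bowtie2 and Trimmomatic 0.32, and they list dm3 as a further build, without roles. The sources used here do not say whether the counts were scaled to a spike-in or peaks were called on pooled libraries, and a change common to all peaks cannot be seen after scaling. Whether starts count from 0 or 1 is not stated. The 2 input libraries were not analysed here.

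Columns were matched to groups by name, and 0 columns were left without a group. CPM is the count divided by the column total. Log2 changes are from edgeR 4.0.16 (R 4.3.3): filterByExpr (minimum count 10, minimum total 15; 41791 peaks kept, all 434 members among them), TMM (factors from 0.990 to 1.01), and 1 robust quasi-likelihood fit of the 4 groups, with Benjamini-Hochberg adjustment over all 41791 peaks at 0.05. Log2 levels carry a prior count of 2. The prior degrees of freedom had a median of 182, so standard errors rest mostly on the spread shared by all peaks. DESeq2 1.42.0 was an alternative.

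The members, the other choices and the tests were chosen with earlier results of these data known. Named peaks are the members with the 8 widest gaps, the 5 highest means, the 5 lowest and 5 highest 24 h against DMSO changes, the 3 lowest and 3 highest 4 h against 2 h changes, the largest group, and 2 on each side of each threshold.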

Additional observations from a re-analysis of the deposited data

How the results depend on the processing

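With a minimum mean of 5 CPM there were 743 members (median early minus outer log2 difference -0.34), with 20 CPM 262 (-0.19), and with a gap of at least 1.1 times 57 (-0.47). TMM or DESeq2 size factors gave 420 each, sharing 386 and 384 with the 434. Without 1 library, which loosens the rule, there were 732 to 803, with medians from -0.24 to -0.21. For 24 h against DMSO, DESeq2 called 0 members lower and 0 higher, beside 314 and 83 of the 26191 peaks, where edgeR called 1482 and 972. Over all peaks tested, which include those under 10 CPM, DESeq2 called 392 and 93 where edgeR called 2040 and 1448. The counts of all peaks without 1 library that follow are also over the peaks tested. Without 1 library edgeR called 1 to 10 members lower, 0 to 2 higher, and 1058 to 2120 and 573 to 1531 of all peaks. For 4 h against 2 h it then called 0 to 1 of all peaks higher. For the contrasts the rule used, DESeq2 called 1 member lower at 2 h and 4 lower at 4 h than DMSO, and 0 higher at 24 h than at 2 h and 0 than at 4 h, beside 0.0878%, 0.248%, 0.0305% and 0% of the 26191 peaks. Without 1 library edgeR called 7 to 39, 11 to 39, 8 to 33 and 1 to 15 members, beside 80 to 306, 205 to 483, 122 to 430 and 22 to 118 of the 26191. The share of peaks chosen in the A libraries that kept the order in B was 18.4% with TMM, 23.1% from 5 CPM and 18.9% from 20 CPM. For peaks chosen in B that kept the order in A it was 22.8%, 21.3% and 23.7%. The shares of all peaks with the order at these settings are not given here, so these values alone do not show recurrence. The median of the nearest non-member peak was -0.055 within 12500 bases, -0.085 within 5 kb and -0.031 within 50 kb. Leaving out a library also leaves its group with 1 library, assumed to vary like the others; other causes were not tested. No result reversed. The contrasts the rule used, the block and the 2 kb distance were added after seeing the data. At a median of 102 counts per library, the early minus outer difference of a member had a median standard error of 0.106 log2 units. The column letters A and B are not tied to the labels' replicate numbers; with the letter as a replicate block, edgeR called 10 members lower and 2 higher at 24 h than in DMSO, 0 and 0 at 4 h against 2 h, 37 and 39 lower than DMSO at 2 h and 4 h, and 30 and 15 higher at 24 h than at 2 h and 4 h. The A minus B differences of 2 groups correlated from -0.04 to 0.06 across the 26191 peaks, so the letters did not mark shared deviations over the whole table.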
